A study of Mus musculus with 3 samples.

Results

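Mesenchymal cells of the embryonic mouse cochlea that carried RNA of both Meox2 and Dcn were examined. Cells were taken from the embryonic day 15 (E15) libraries where a barcode had at least 500 genes, at most 20% mitochondrial unique molecular identifiers (UMIs), no UMI of Epcam, Cdh5, Sox10 or Ptprc, and at least 3 UMIs of Col1a2 and Col3a1 together. Of these 3697 E15 mesenchymal cells, 866 were selected on their measured UMIs, with at least 1 of Meox2 and at least 2 of Dcn. These Meox2+ Dcn+ cells are 866 of the 13637 cells kept in the series and of the 6375 kept at E15. The remaining 2831 mesenchymal cells are called the rest. Meox2 lies on chromosome 12 (37108540 to 37179534, plus strand, GRCm38) and Dcn on chromosome 10 (97479609 to 97518143, plus strand).

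All libraries came from whole cochleae of wildtype C57BL/6J mice, dissociated with papain and thermolysin, sorted against debris and counted with the 10x Chromium 3' v3 chemistry. There were 2 E15 libraries, called replicates 1 and 2, and 1 library of postnatal day 7 (P7). The labels do not say whether the E15 libraries came from separate litters, so the spread between them may be technical. No genotype or treatment differed between the groups, and the age of each library is the only factor in the labels. The P7 library was also counted with another software version and annotation than the E15 libraries.

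The mesenchyme around the developing inner ear comes from mesoderm and neural crest. It gives rise to the bony capsule and to the connective tissue of the cochlea, including the spiral ligament and spiral limbus. Meox2 encodes a homeobox transcription factor of mesodermal tissues, known from muscle, skeleton and vessels. Dcn encodes decorin, a small leucine-rich proteoglycan that binds collagen fibrils and transforming growth factors.

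The E15 libraries held 46530036 and 44304364 UMIs. The Meox2+ Dcn+ cells had a median of 16039.5 and 12887.5 UMIs per cell in replicates 1 and 2, against 15029 and 10989 in the rest. Only 3 cell barcodes occurred in both E15 libraries. Mitochondrial UMIs had a median of 1.778% and 1.579% in the Meox2+ Dcn+ cells and 1.582% and 1.377% in the rest.

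In replicate 1, 414 of 1630 mesenchymal cells passed both criteria (25.4%, exact 95% interval 23.3 to 27.6). In replicate 2 the number was 452 of 2067 (21.9%, 20.1 to 23.7). Dcn was seen more often with Meox2 than without it: 59.0% and 55.5% of the cells with Meox2 had at least 2 UMIs of Dcn, against 21.2% and 21.5% of the cells without Meox2. In cells with at least 2 UMIs of Epcam, an epithelial gene, 4.79% and 3.97% passed both criteria, at median depths of 14509.5 and 9671 UMIs. The corresponding shares were 0.885% and 0.585% in cells with Sox10, a glial gene. Among endothelial cells with Cdh5 they were 0 of 43, which allows up to 8.22%, and 1 of 55. All intervals cover counting error only. After every cell was thinned to 5000 UMIs 147 of 1356 (10.8%) and 212 of 1657 (12.8%) mesenchymal cells passed, so the share depends on depth.

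The criteria set the levels of the chosen genes, which are given as a description. Meox2 was at 174 and 194 UMIs per 1000000 UMIs of the cell set (CPM) in the Meox2+ Dcn+ cells of replicates 1 and 2, and at 30.2 and 30.6 CPM in the rest. Dcn was at 522 and 638 CPM, against 73.2 and 90.1. Per cell, Meox2 had a median of 2 UMIs in both libraries and Dcn of 7 and 6.5. Many cells lay at the threshold: 29.2% and 31.6% of the cells held exactly 1 UMI of Meox2, and 9.42% and 13.3% held exactly 2 of Dcn.

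Pltp and Foxd1 were the other genes proposed as markers of these cells. Pltp, a phospholipid transfer protein, was at 41.0 and 28.2 CPM in the Meox2+ Dcn+ cells and at 16.8 and 16.7 CPM in the rest, a log2 difference of 1.07 ± 0.10 (SE). Foxd1, a forkhead transcription factor, went the other way. It was at 267 and 287 CPM in the Meox2+ Dcn+ cells and at 331 and 334 CPM in the rest, so both libraries were lower and the log2 difference was -0.24 ± 0.04. Foxd1 therefore does not mark the group as chosen. The paralogue Meox1 was at 2.71 and 3.36 CPM, against 3.86 and 3.21, and was not called.

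Just outside the Dcn threshold, Meox2+ cells with 1 UMI of Dcn had 199 and 193 CPM of Sparcl1. Those just inside, with 2 or 3 UMIs, had 245 and 319 CPM, and those with 10 or more had 484 and 495. Id2 ran the opposite way, from 127 and 125 CPM at no UMI of Dcn to 74.8 and 70.8 at 1 UMI and 19.98 and 26.6 at 10 or more. Foxd1 was at 480 and 450 CPM in Meox2+ cells without Dcn and at 280 and 293 in those with the most. Sparcl1 and Apod were higher in each fuller class of Dcn in both libraries, while Pltp, Foxd1 and Id2 did not change evenly and differed between the libraries in the class of 2 or 3 UMIs.

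**Figure D1:**
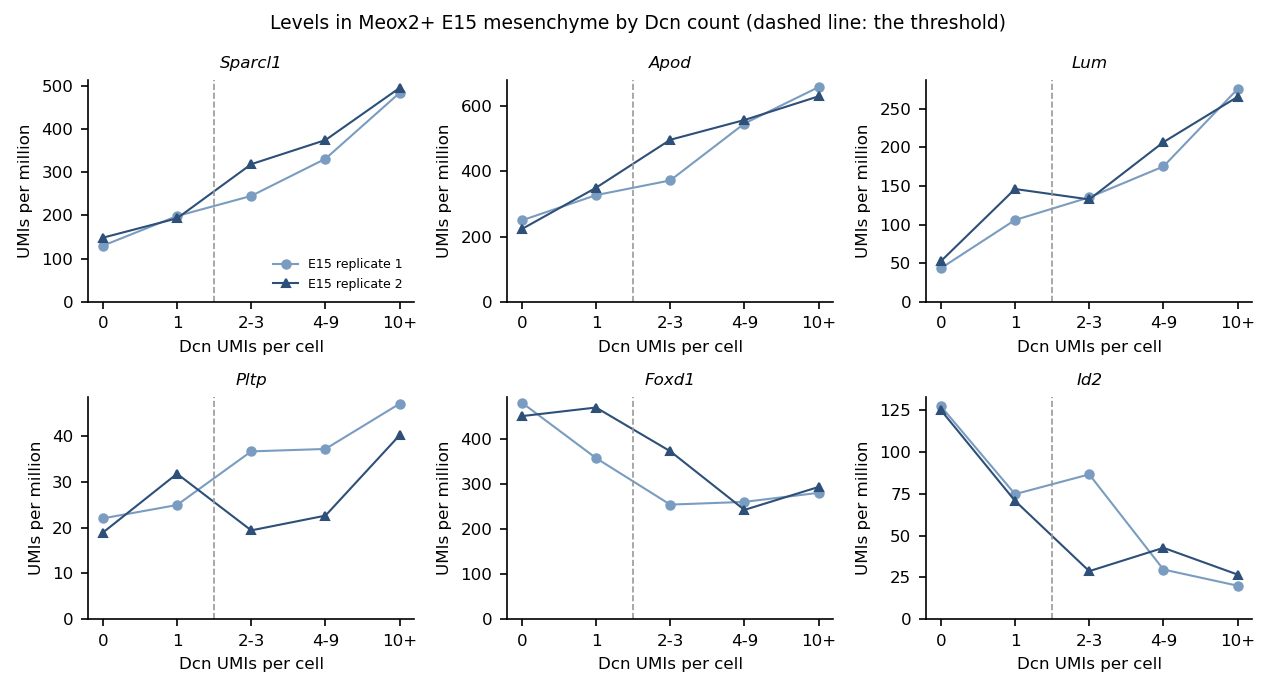
Level (y axis, CPM) of 6 genes in E15 mesenchymal cells with Meox2, by the number of Dcn UMIs per cell (x axis); circles and triangles are replicates 1 and 2 and the dashed line is the threshold. Sparcl1, Apod and Lum are highest and Id2 is lowest where Dcn reaches 10 or more UMIs. Sparcl1 is at 484 and 495 there and 130 and 148 at none. Foxd1 is lower there than in cells without Dcn, but not lower than at 4 to 9 UMIs.

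Which genes set these cells apart from other E15 mesenchyme was asked next. UMIs were summed per library and cell set, and 13430 genes were compared with edgeR's quasi-likelihood test with the library as a block. Calls needed a fitted fold of 1.5 or more and a p, adjusted by the Benjamini-Hochberg method, under 0.05. In this comparison 360 genes were higher in the Meox2+ Dcn+ cells (2.68% of those tested) and 735 were lower (5.47%), 8.15% in either direction. The median log2 difference over all tested genes was 0.0014. With DESeq2 the counts were 154 and 263, all of them among edgeR's calls, and with cells chosen after thinning to 5000 UMIs they were 139 and 264. The sums leave 1 residual degree of freedom, and the fit pooled the spread over all genes. A gene's own spread therefore carries no weight in its p or its SE, and the SE does not measure the difference between the libraries.

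Slc5a7, the high-affinity choline transporter, was at 51.3 and 74.3 CPM against 14.1 and 12.6 in the rest, a log2 difference of 2.24 ± 0.09 (edgeR adjusted p = 3.1e-128). Its log2 ratio was 1.86 in replicate 1 and 2.56 in replicate 2, further apart than the SE shows. Coch, which encodes cochlin, an abundant matrix protein of the inner ear, was at 104 and 147 CPM against 33.5 and 29.9 (1.99 ± 0.07). The log2 ratios of Coch in replicates 1 and 2 were 1.63 and 2.30. Sparcl1, a matricellular protein related to SPARC, was at 375 and 406 CPM against 122 and 130 (1.65 ± 0.04). These genes were picked for a large called change in the same direction in both libraries. That their values do not overlap follows largely from this choice.

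Apod, a lipocalin that carries small lipids, was at 555 and 570 CPM against 200 and 208 (log2 difference 1.49 ± 0.03). Slc1a3, a glutamate transporter, was at 548 and 521 CPM against 232 and 208 (1.31 ± 0.03). Lum, the proteoglycan lumican, was at 207 and 212 CPM against 75.9 and 101 (1.29 ± 0.05). The other genes of the 12 with the largest increase were Rgmb, a co-receptor for bone morphogenetic proteins (BMPs), the tetraspanin Tspan5, the sialyltransferase St3gal1, the filamin-binding Rflnb, the ephrin receptor Epha7 and Macrod2. Their log2 differences ran from 1.24 for Macrod2 to 1.49 for Rgmb.

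Among the genes with the largest decrease, Angpt1, the ligand of the Tie2 receptor of endothelial cells, was at 4.197 and 3.84 CPM in the Meox2+ Dcn+ cells and at 69.2 and 62.5 CPM in the rest, a log2 difference of -4.01 ± 0.13 (edgeR adjusted p = 8.8e-195). Id2, an inhibitor of basic helix-loop-helix factors, was at 37.4 and 34.1 CPM against 275 and 268 (-2.90 ± 0.06). Mgp, an inhibitor of matrix calcification, was at 85.7 and 58.4 CPM against 367 and 374 (-2.33 ± 0.05). These 3 genes were picked in the same way, so a lower level in both libraries was a condition of the choice.

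The other genes in the 12 largest decreases were Gdf10, a ligand of the transforming growth factor family, the transcription factor Maf, the RNA-binding Khdrbs2, Id1, the kinase scaffold Akap12, the immediate-early genes Fos and Egr1, the receptor adaptor Grb14, and Foxd2os, a noncoding transcript next to Foxd2 on the other strand. Their log2 differences ran from -2.45 for Gdf10 to -1.36 for Foxd2os.

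**Figure D2:**
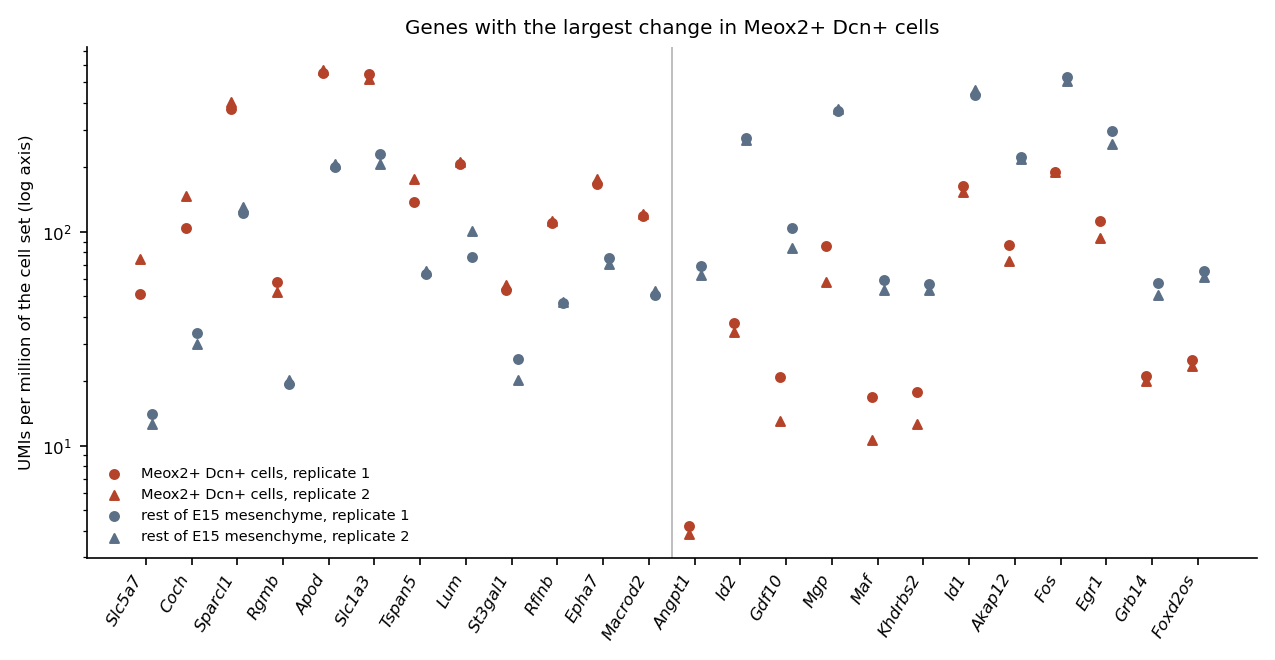
Level (y axis, CPM, log axis) of the 12 genes with the largest increase (left of the line) and the 12 with the largest decrease (right) in Meox2+ Dcn+ cells (red) and the rest of E15 mesenchyme (blue); circles and triangles are replicates 1 and 2. The genes were picked for a called change in the same direction in both libraries, for example Sparcl1 at 375 and 406 against 122 and 130.

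For some genes the difference was also visible as a share of cells. After thinning to 5000 UMIs, 65.6% and 73.3% of the Meox2+ Dcn+ cells of replicates 1 and 2 had a UMI of Sparcl1, against 30.9% and 31.7% of the rest. Without thinning the shares were 82.4% and 84.5%, against 46.4% and 44.3%. Id2 was seen in 11.6% and 8.76% of the thinned Meox2+ Dcn+ cells and in 44.8% and 46.5% of the rest (25.4% and 16.6% against 60.2% and 55.0% without thinning). Thinning left out 1 and 7 of the Meox2+ Dcn+ cells and 73 and 172 of the rest, which had too few UMIs. Otor, which was lower in CPM, was seen in nearly as many of the Meox2+ Dcn+ cells: 47.0% and 44.7% against 51.2% and 52.2% after thinning, and 59.4% and 58.6% against 61.1% and 58.6% without.

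Genes of BMP and transforming growth factor signalling were lower more often than higher. BMPs are secreted ligands that act through SMAD proteins. The Id genes and the inhibitory SMADs are direct targets that rise when the pathway is active. Of 38 listed genes, 32 were tested, and 16 of these were lower, 2 higher and 14 not called. Over all genes 5.47% were lower and 2.68% higher. The list's median log2 difference was -0.64, beside 0.0014 over all genes. DESeq2 called 12 of them lower and 1 higher.

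Among the ligands, Gdf10 was at 20.8 and 13.0 CPM against 105 and 84.0 in the rest (log2 difference -2.45 ± 0.09). Bmp4 was at 23.4 and 19.8 CPM against 38.4 and 40.5 (-0.83 ± 0.10). Of the secreted modulators, Bmper was at 0.406 and 0.480 CPM against 12.1 and 10.5 (-4.63 ± 0.34). The extracellular antagonists Fst, Grem1 and Nog were called lower as well. The ligand Bmp7 was not called, at 58.6 and 46.4 CPM against 38.1 and 39.8. Fst had no UMI in the Meox2+ Dcn+ cells of replicate 1 and 0.160 CPM in replicate 2, against 6.28 and 4.61 CPM.

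The receptor Bmpr1a was not called, at 58.9 and 48.5 CPM against 61.4 and 55.0. The receptor Tgfbr2 was higher, at 77.0 and 72.8 CPM against 48.4 and 50.03 (log2 difference 0.63 ± 0.07). Of the targets, Id1 was at 164 and 153 CPM against 437 and 462 (-1.47 ± 0.04). Id3 was at 650 and 668 CPM against 1005 and 1067 (-0.63 ± 0.03). The inhibitory Smad6 and Smad7 were also lower, with log2 differences of -0.82 ± 0.18 and -1.03 ± 0.08. Bmp4, Tgfbr2, Id3, Smad6 and Smad7 fall outside the rule for named genes and were picked after their values were seen, to cover the roles in the pathway.

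Immediate-early genes, which respond rapidly to growth factors and other stimuli, were in part lower. Of the 16 genes of the immediate-early and stress list, 8 were lower, beside 5.47% of all genes, and 8 were not called. The list's median log2 difference was -0.61, and DESeq2 also called 8 lower. Fos was at 191 and 190 CPM against 527 and 506 in the rest (log2 difference -1.41 ± 0.04). Junb was at 115 and 106 CPM against 268 and 248 (-1.20 ± 0.05). Socs3, an inhibitor of cytokine signalling, was at 60.4 and 60.02 CPM against 135 and 142 (-1.17 ± 0.06). Jun was at 548 and 527 CPM against 821 and 808 and was not called. The cells of both groups came from the same libraries, but whether they responded alike to dissociation was not tested.

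The stretches of 250 bases before the start of Id2, Id3, Fos and Junb are shown because these genes, from both lists, were low together (RefSeq promoters, GRCm38.p6). Each is written 5′ to 3′ on the gene's strand. Capitals mark the motif GGCGCC, which is its own reverse complement, and TGACG on either strand (CGTCA on the other); the motifs do not overlap each other in these stretches. Positions are chr12:25096093-25096342 (minus strand) for Id2, chr4:136143572-136143821 (plus) for Id3, chr12:85473640-85473889 (plus) for Fos and chr8:84978749-84978998 (minus) for Junb.
Id2: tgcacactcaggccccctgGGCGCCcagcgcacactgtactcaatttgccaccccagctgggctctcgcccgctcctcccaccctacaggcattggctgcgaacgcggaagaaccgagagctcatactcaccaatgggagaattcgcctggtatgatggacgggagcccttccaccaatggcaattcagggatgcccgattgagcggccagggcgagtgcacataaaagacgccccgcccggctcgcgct
Id3: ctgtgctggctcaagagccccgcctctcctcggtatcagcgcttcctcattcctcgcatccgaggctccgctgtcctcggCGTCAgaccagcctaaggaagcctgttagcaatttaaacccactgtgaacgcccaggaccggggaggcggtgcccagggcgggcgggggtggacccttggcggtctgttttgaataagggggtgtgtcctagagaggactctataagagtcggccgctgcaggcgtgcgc
Fos: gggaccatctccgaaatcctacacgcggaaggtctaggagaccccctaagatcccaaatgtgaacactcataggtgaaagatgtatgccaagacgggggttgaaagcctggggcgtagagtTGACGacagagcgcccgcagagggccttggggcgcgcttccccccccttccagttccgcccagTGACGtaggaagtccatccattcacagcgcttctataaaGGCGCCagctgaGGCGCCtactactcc
Junb: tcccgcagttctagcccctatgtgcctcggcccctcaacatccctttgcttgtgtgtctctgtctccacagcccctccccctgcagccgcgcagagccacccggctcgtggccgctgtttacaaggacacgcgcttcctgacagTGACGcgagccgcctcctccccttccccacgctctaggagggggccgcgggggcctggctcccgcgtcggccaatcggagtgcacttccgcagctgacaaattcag

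GGCGCC occurred once upstream of Id2 and at 2 places upstream of Fos. TGACG occurred once upstream of Id3 and of Junb and at 2 places upstream of Fos. Of 32851 RefSeq promoter stretches of the same length, 9.59% held GGCGCC and 17.8% held TGACG on either strand. The matches describe these letters only.

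Insulin-like growth factor genes were lower or not called. Of 16 tested, 7 were lower, beside 5.47% of all genes, and 9 were not called. The list's median log2 difference was -0.38, and DESeq2 called 4 lower. Igf2, a fetal growth factor, was at 135 and 126 CPM in the Meox2+ Dcn+ cells and 273 and 298 CPM in the rest (log2 difference -1.10 ± 0.04). The binding protein Igfbp5 was at 269 and 208 CPM against 625 and 560 (-1.29 ± 0.03). Igfbp2 and Igfbp4 were not called, at 581 and 573 and at 596 and 611 CPM, so the binding proteins did not all differ.

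In the Wnt list, 29 genes were tested, 3 were higher and 11 were lower (median log2 difference -0.43), beside 2.68% and 5.47% of all genes. DESeq2 called 1 higher and 5 lower. The higher genes were the ligands Wnt2 and Wnt6 and the inhibitor Dkk1. Wnt2 was at 4.197 and 8.64 CPM against 1.04 and 1.35 in the rest (log2 difference 2.41 ± 0.28). Among the lower genes, Rspo2, a secreted enhancer of Wnt signalling, was at 0.271 and 0.8003 CPM against 8.76 and 9.78, and Notum, an enzyme that inactivates Wnt ligands, was at 0.541 and 1.76 against 10.0 and 9.83. Lef1, a nuclear partner of beta-catenin, was not called. PDGF and FGF genes gave 9 lower, beside 5.47% of all genes, and 12 not called of 21 tested, but DESeq2 called only 1 lower. Pdgfra, a receptor of many mesenchymal cells, was at 125 and 103 CPM against 132 and 118.

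Matrix genes moved in both directions. Of 12 small leucine-rich proteoglycans tested, the family to which Dcn itself belongs, 2 were higher (Lum and Fmod) and 5 were lower, with a median log2 difference of -0.82, beside 2.68% and 5.47% of all genes. DESeq2 called 1 higher and 2 lower, and Fmod was not among them. Bgn, biglycan, the closest relative of decorin, was not called, at 147 and 170 CPM against 120 and 142. Ogn, osteoglycin, was lower at 19.8 and 16.6 CPM against 36.9 and 34.5 (log2 difference -0.94 ± 0.10). Epyc, epiphycan of cartilage, was at 0.812 and 0.480 CPM against 6.78 and 8.37 (-3.47 ± 0.34). The chosen cells were thus high in Dcn and Lum but not in the whole family.

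Of 31 collagens tested, 3 were higher and 8 were lower, beside 2.68% and 5.47% of all genes. DESeq2 called 1 higher, Col4a5, and 6 lower. The higher collagens were Col4a5 and Col4a6, chains of basement membranes, and Col6a6. The lower ones included Col11a1, at 90.7 and 80.5 CPM against 172 and 169, and Col12a1, at 29.5 and 27.1 CPM against 61.5 and 56.8. Col2a1, the main collagen of cartilage, was not called. Among matricellular proteins 2 of 24 were higher (Sparcl1 and Vcan) and 12 were lower, beside 2.68% and 5.47% of all genes. DESeq2 called 2 and 6. Ccn3 was at 0.541 and 0.960 CPM against 23.7 and 15.6 (log2 difference -4.72 ± 0.26). Postn, periostin, was at 16.0 and 12.5 CPM against 48.6 and 44.5 (-1.68 ± 0.10). Col4a5, Col4a6, Col11a1, Col12a1 and Vcan were named after their values were seen.

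**Figure D3:**
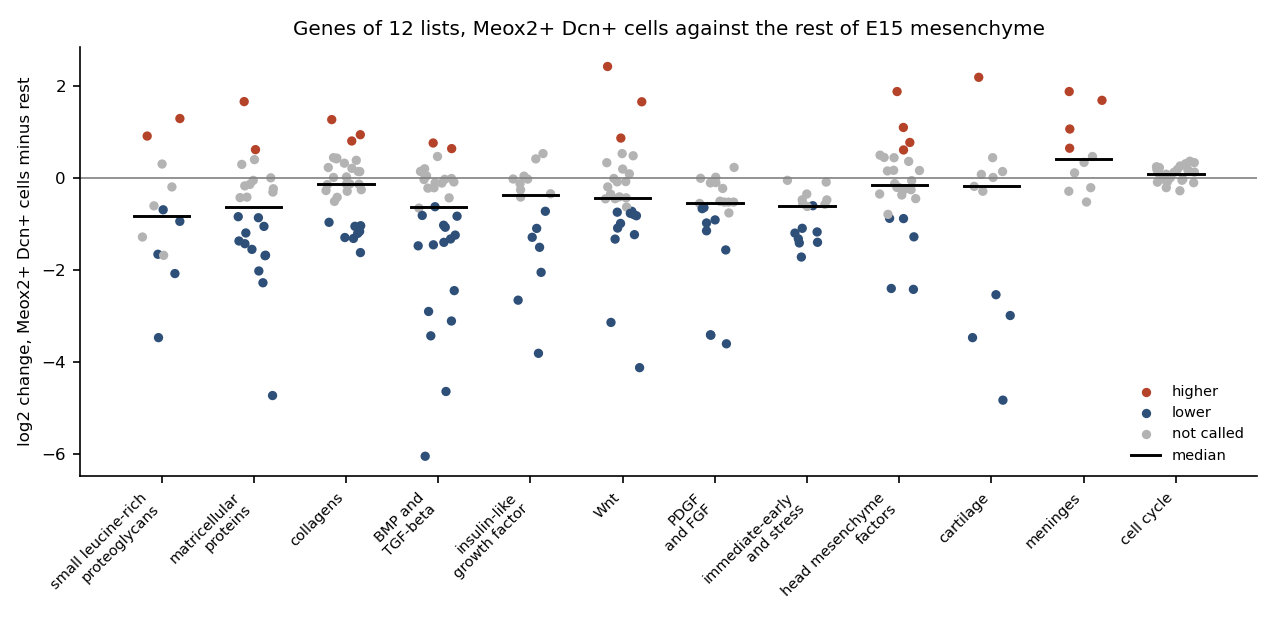
Log2 difference between Meox2+ Dcn+ cells and the rest of E15 mesenchyme (y axis) for each tested gene of 12 lists (x axis), with called genes in red (higher) and blue (lower), others in grey, and the median as a black line. The BMP and TGF-beta list has its median at -0.64 and 16 lower genes of 32, while no cell cycle gene passes the threshold.

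Transcription factors of head and otic mesenchyme divided the same way. Zic1 was at 47.5 and 33.6 CPM in the Meox2+ Dcn+ cells and 12.8 and 9.73 CPM in the rest (log2 difference 1.87 ± 0.10). Zfhx4 was at 490 and 450 CPM against 226 and 223 (1.09 ± 0.04). Tbx18, a T-box factor required for the otic fibrocytes, was at 326 and 321 CPM against 217 and 215 (0.60 ± 0.04), just past the threshold, and fell below it when library totals replaced TMM scaling (0.58). Six2 was lower, at 6.50 and 4.48 CPM against 32.6 and 26.7 (-2.40 ± 0.14), as were Tbx1, Tbx2, Ebf2 and Ebf3. In all, 4 of the 26 tested factors were higher and 5 lower, beside 2.68% and 5.47% of all genes.

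Pou3f4, a transcription factor of otic mesenchyme whose loss causes deafness, was at 524 and 586 CPM against 388 and 415. Its log2 difference of 0.49 ± 0.03 missed the fold threshold. Twist1, a general mesenchymal factor, was at 241 and 302 CPM against 284 and 289.

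The tendon transcription factors Scx and Mkx were higher. Scx, scleraxis, was at 116 and 136 CPM against 63.7 and 70.9 (log2 difference 0.93 ± 0.06). Mkx, mohawk, was at 24.8 and 24.97 CPM against 5.69 and 5.87 (2.13 ± 0.14). Of the 5 tested genes of the tendon list, Scx, Mkx and Fmod were higher, the last not with DESeq2, while Tnc and Egr1 were lower. Over all genes 2.68% were higher and 5.47% lower. Scx did not pass when cells were chosen after thinning to 5000 UMIs (0.40).

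Genes of the meninges and of retinoic acid were also examined. Of 17 tested retinoic acid genes, 2 were higher (Aldh1a2 and Crabp2) and 5 were lower, beside 2.68% and 5.47% of all genes. The list's median log2 difference was -0.24, and DESeq2 called 1 higher and 2 lower. Among the lower ones were the receptor Rxrg, at 1.08 and 0.8003 CPM against 7.42 and 6.82 (-2.87 ± 0.32), and the degrading enzyme Cyp26b1, at 0.271 and 0.160 CPM against 2.23 and 1.404 (-2.996 ± 0.64). Aldh1a2, the enzyme that makes retinoic acid, was at 35.3 and 21.1 CPM against 10.1 and 7.77 (log2 difference 1.68 ± 0.12). Crabp2, a retinoic acid binding protein, was at 150.8 and 107 CPM against 77.0 and 91.9 (0.64 ± 0.06), but its log2 difference was -0.0018 when the cells were chosen after thinning. In the meninges list 4 of 10 tested genes were higher (Zic1, Aldh1a2, Slc6a13 and Crabp2), beside 2.68% of all genes. The other 6 were not called, among them Foxc1, and DESeq2 called 2 of the 4. Under the same choice Aldh1a2 had a log2 difference of 0.52 and was not called.

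Otor, otoraplin, a secreted protein of the cochlear mesenchyme, was at 464 and 439 CPM in the Meox2+ Dcn+ cells and 950 and 1127 CPM in the rest (log2 difference -1.17 ± 0.03). Coch and Otor, both secreted in the inner ear, thus differed from the rest in opposite directions.

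Cell cycle genes passed the threshold in 1 of the comparisons. Against the rest, none of the 24 cell cycle genes was called by edgeR or DESeq2, although 13 had an unadjusted edgeR p under 0.05. The summed level of the list was 4426 and 4277 CPM in the Meox2+ Dcn+ cells and 4459 and 4235 CPM in the rest. After thinning, 83.5% and 84.3% of the Meox2+ Dcn+ cells had at least 2 UMIs of the list, against 79.9% and 82.4% (98.1% and 96.2% against 94.4% and 90.2% without thinning). Against mesenchymal cells with Meox2 and under 2 UMIs of Dcn, edgeR and DESeq2 each called 3 of the 24 higher. With edgeR 1.69% of all genes were higher there. The list's median log2 difference was 0.28, and 18 had an unadjusted edgeR p under 0.05. The 3 called genes were the mitotic genes Ube2c (0.80), Cdc20 (0.75) and Cenpf (0.73). Against cells with Dcn and no Meox2 neither tool called any, and 9 had an unadjusted edgeR p under 0.05.

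Markers of other cell types were counted because they could enter either group. Pericyte and smooth muscle markers summed to 64.2 and 28.0 CPM in the Meox2+ Dcn+ cells and to 156 and 156 CPM in the rest. Of 9 tested, 8 were lower (4 with DESeq2), beside 5.47% of all genes. Rgs5 was at 9.61 CPM in replicate 1 and 0.480 in replicate 2, and Acta2 was at 15.8 and 0 CPM, so these counts came mostly from replicate 1. Erythroid genes, 6 in all, summed to 54.0 and 51.1 CPM in the Meox2+ Dcn+ cells and to 2185 and 1914 CPM in the rest. The shares of cells were closer: Hbb-bs was seen in 15.0% and 11.46% of the Meox2+ Dcn+ cells and in 14.3% and 9.63% of the rest after thinning, and in 37.9% and 23.7% against 38.8% and 21.1% without. With cells chosen after thinning, the log2 difference of Hbb-bt was 0.0196. The part of these markers in the other differences was not tested.

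Immune markers, 7 genes, summed to 3.93 and 2.88 CPM against 3.32 and 4.06 in the rest, and C1qa, C1qc and Csf1r had no UMI in the Meox2+ Dcn+ cells. Glial markers other than Sox10 summed to 47.2 and 53.9 CPM against 37.1 and 40.6, and endothelial ones other than Cdh5 to 94.8 and 111 CPM against 165 and 156. Emcn made up most of the endothelial sum, at 80.0 and 95.7 CPM. Of the skeletal muscle markers, Myod1, Myf5, Myf6, Pax3 and Pax7 were at 0 in the Meox2+ Dcn+ cells.

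The rest is a mixture, so the Meox2+ Dcn+ cells were next set against cells that share only 1 of the criteria. There were 650 mesenchymal cells with Meox2 and under 2 UMIs of Dcn (Meox2+ Dcn-low) and 466 with Dcn and no Meox2 (Meox2- Dcn+). A joint fit of 8 sums tested 12408 genes with 3 residual degrees of freedom. Against Meox2+ Dcn-low cells 210 genes were higher (1.69%) and 419 lower (3.38%), 5.07% in all. Against Meox2- Dcn+ cells 171 were higher (1.38%) and 386 lower (3.11%), 4.49% in all. With DESeq2 these counts were 107, 214, 80 and 234. Both comparisons use the same Meox2+ Dcn+ sums, so their values are set side by side and not counted as separate evidence.

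Several genes were higher against both sets. Sparcl1 was at 146 and 159 CPM in Meox2+ Dcn-low cells and at 200 and 215 in Meox2- Dcn+ cells, each below the 375 and 406 CPM of the cells with both. Its log2 differences were 1.403 and 0.91. Slc5a7 differed by 1.92 and 1.41, Slc1a3 by 1.15 and 1.03, Apod by 1.16 and 0.75, Zic1 by 1.26 and 1.12 and Mkx by 1.71 and 1.12, in the same order. All of these passed the test in both comparisons.

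Other genes differed more from 1 set than from the other. Lum was at 58.1 and 75.5 CPM in Meox2+ Dcn-low cells and at 190 and 274 in Meox2- Dcn+ cells, and its log2 differences were 1.71 (called) and -0.13 (not called). Scx differed by 1.17 and 0.32 and Coch by 2.17 and 0.60, the latter called in both. St3gal1 showed the other order, with 0.64 and 1.30, called in both. Whether the 2 differences of a gene differ from each other was not tested.

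Foxd1 was at 451 and 455 CPM in Meox2+ Dcn-low cells and at 240 and 293 CPM in Meox2- Dcn+ cells. It was therefore lower than in the former (log2 difference -0.66, called) and level with the latter (0.05, not called). Foxp1 had a like order, at 624 and 617 and at 249 and 252 CPM, beside 378 and 357 CPM in the cells with both. Foxd2 was lower than in Meox2+ Dcn-low cells by a log2 difference of -2.07. Against those cells 7 of 14 forkhead genes were lower, beside 3.38% of all genes. Pltp was called higher than in Meox2+ Dcn-low cells by edgeR but not by DESeq2. Against Meox2- Dcn+ cells neither tool called Pltp, so it does not set the group apart from cells that share Dcn.

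The collagen IX chains Col9a3 and Col9a1, found in cartilage, lay between the other sets. Col9a3 was at 200 and 253 CPM in the Meox2+ Dcn+ cells, at 97.4 and 108 in Meox2+ Dcn-low cells and at 355 and 276 in Meox2- Dcn+ cells. Col9a1 was higher than in the former (log2 difference 0.79) and lower than in the latter (-0.59), and both were called. Col11a2, another cartilage collagen, did not share this place: it was at 3.11 and 2.88 CPM in the cells with both, at 3.12 and 6.01 in Meox2+ Dcn-low cells and at 19.6 and 10.5 in Meox2- Dcn+ cells. Acan, aggrecan, was at 0.135 and 0 CPM in the cells with both. Against Meox2- Dcn+ cells 8 of 11 tested cartilage genes were lower and 1 was higher, beside 3.11% and 1.38% of all genes. Against Meox2+ Dcn-low cells 1 of the 11 was lower and 4 were higher, beside 3.38% and 1.69% of all genes. The list's median log2 difference was -0.70 against Meox2- Dcn+ cells and 0.50 against Meox2+ Dcn-low cells. DESeq2 called 8 lower in the former comparison and 4 higher in the latter.

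Id2 was at 115 and 112 CPM in Meox2+ Dcn-low cells and at 256 and 236 CPM in Meox2- Dcn+ cells, with log2 differences of -1.62 and -2.78. Id1 was called against Meox2- Dcn+ cells (-1.35) and not against Meox2+ Dcn-low cells (-0.56). Fos differed by -1.03 and -1.25, Igf2 by -1.11 and -1.12 and Gdf10 by -1.97 and -2.30, all called. The level of haemoglobin Hbb-bs in Meox2+ Dcn-low cells, 31.6 and 27.2 CPM, was close to the 28.7 and 25.8 CPM of the cells with both.

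**Figure D4:**
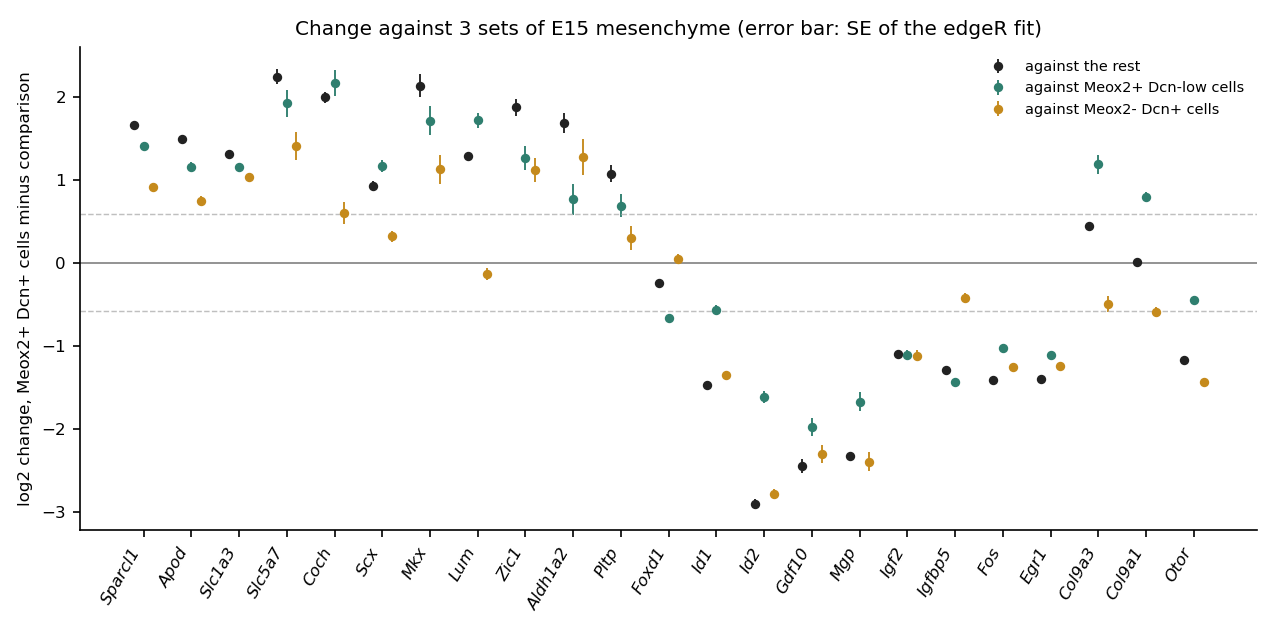
Log2 difference (y axis) of 23 genes between Meox2+ Dcn+ cells and the rest of E15 mesenchyme (black), Meox2+ Dcn-low cells (green) and Meox2- Dcn+ cells (orange); error bars are the SE of the fit and dashed lines mark a fold of 1.5. Lum lies at 1.71 against Meox2+ Dcn-low cells and -0.13 against Meox2- Dcn+ cells, while Slc1a3 lies at 1.15 and 1.03.

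Whether the Meox2+ Dcn+ cells form 1 population was examined by clustering all E15 mesenchyme without the genes of the criteria. They fell into several of the 13 clusters, which are described by number and leading genes. Cluster 4, led by Coch, Cdh8, Slc5a7 and Scx, held 395 cells, of which 60.7% in replicate 1 and 60.8% in replicate 2 were Meox2+ Dcn+. Cluster 5, led by Vtn, Pltp, Epha5 and Itih5, held 385 cells, with 55.4% and 49.6%. Together these clusters held 21.1% of the mesenchyme and 47.1% and 54.2% of the Meox2+ Dcn+ cells.

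Cluster 9, led by Wnt6 and Tmem108, had 44.8% in replicate 1 and 23.1% in replicate 2, so the libraries differed there. The clusters led by histone genes and by Cdkn3 and Cenpa, which contain dividing cells, had 22.7% and 23.6% and 30.2% and 23.4%. At the other end, cluster 3, led by Calca and Angpt1, had 1 of 187 and 0 of 226 cells. Cluster 7, led by Cdh6 and Tnc, had 3 of 141 and 2 of 157 cells, and cluster 11, led by Mia and Fbxo2, had 1 of 61 and 0 of 92.

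**Figure D5:**
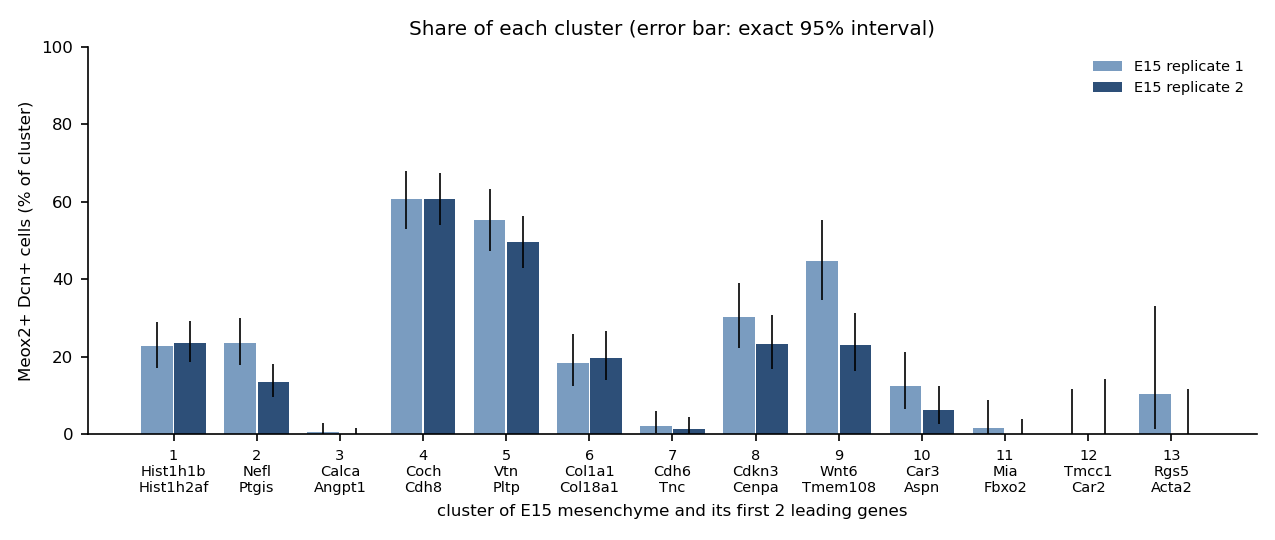
Share of each cluster of E15 mesenchyme that is Meox2+ Dcn+ (y axis, percent) for the 13 clusters (x axis, with the first 2 leading genes); light and dark bars are replicates 1 and 2 and error bars are exact 95% intervals. Clusters 4 and 5 reach 49.6% to 60.8%, and clusters 3, 7 and 11 lie near 0.

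The Meox2+ Dcn+ cells of clusters 4 and 5 differed from each other; since the clusters were made from the expression of these same cells, the levels are a description with no test. Foxd1 was at 95.1 and 91.0 CPM in the Meox2+ Dcn+ cells of cluster 4 and at 503 and 548 CPM in those of cluster 5. Igfbp5 was at 23.2 and 40.6 CPM and at 313 and 169 CPM, in the same order. Fos was at 74.0 and 59.5 CPM and at 299 and 364 CPM. The group thus holds cells low and cells high in Foxd1, and its mean level of Foxd1 lies between them. The other cells of the same clusters had a like contrast, with Foxd1 at 81.2 and 79.0 CPM in cluster 4 and 594 and 619 in cluster 5. Their Fos was at 118 and 105 CPM and at 363 and 469 CPM.

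Col9a3 ran the opposite way, at 329 and 432 CPM in cluster 4 and 53.4 and 82.6 CPM in cluster 5, and so it did in the other cells of these clusters (290.1 and 327 against 33.0 and 45.4). Scx was at 233 and 225 CPM in cluster 4 and 42.4 and 67.9 CPM in cluster 5. In the other cells of these clusters Scx was at 207 and 184 and at 46.2 and 48.9 CPM. Wnt2 was at 11.1 and 21.2 CPM in cluster 4 and had no UMI in cluster 5. Lum was at 171 and 165 CPM in cluster 4 and 322 and 348 CPM in cluster 5. Some genes were alike in both: Sparcl1 was at 501 and 527 and at 484 and 488 CPM, and Id2 was at 20.1 and 12.6 and at 26.7 and 23.2 CPM. Mkx was at 33.3 and 28.6 and at 36.9 and 40.2 CPM. Meox2 itself was at 202 and 196 CPM in cluster 4 and 238 and 261 CPM in cluster 5.

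Within a cluster, some of the genes that differed from the rest of the mesenchyme were close to the level of the other cells. Coch was at 52.6 and 57.9 CPM in the Meox2+ Dcn+ cells of cluster 5 and at 46.2 and 57.8 CPM in its other cells, while in cluster 4 it was at 234 and 286 against 190 and 139. Otor, lower against the rest, was at 456 and 415 CPM against 400 and 333 in cluster 5. In cluster 4 Otor was at 611 and 512 CPM against 575 and 657. Rflnb was at 108 and 160 CPM against 139 and 136 in cluster 5, so its order differed between the libraries. Pltp also differed in order there, at 89.5 and 74.9 CPM against 66.0 and 84.5. In cluster 4 Pltp was higher, at 25.4 and 17.2 CPM against 6.43 and 12.6. Aldh1a2 was lower than in the other cells of cluster 5, at 22.0 and 25.5 CPM against 34.1 and 28.5. Zic1 was higher there, at 74.6 and 55.6 CPM against 40.7 and 26.7. Sparcl1 was at 501 and 527 CPM against 292 and 283 in cluster 4 and at 484 and 488 against 394 and 415 in cluster 5. Id2 was at 53.8 and 61.4 CPM in the other cells of cluster 4 and at 47.3 and 69.4 in those of cluster 5, above the Meox2+ Dcn+ cells in both libraries.

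Among the 15 nearest neighbours of a Meox2+ Dcn+ cell, 59.7% and 62.5% were also Meox2+ Dcn+, against 14.0% and 14.6% for a cell of the rest. The cells with Meox2 alone had 22.8% and 21.6% and those with Dcn alone 28.7% and 29.0%. Of the pooled mesenchyme from which neighbours were drawn, 23.4% were Meox2+ Dcn+ (25.4% and 21.9% in replicates 1 and 2). The cells with Meox2 alone were thus near or below that share.

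At P7, 77 of 4233 mesenchymal cells met the same criteria (1.82%, exact 95% interval 1.44 to 2.27). Meox2 was seen in 2.43% of P7 mesenchyme, against 43.1% and 39.4% at E15, while at least 2 UMIs of Dcn were seen in 65.7%, against 37.5% and 34.9%. Of the P7 cells with at least 2 UMIs of Cdh5, an endothelial gene, 4.29% met both criteria, and of those with Epcam 0.730%. The P7 share lies below the endothelial share, so it is not read as expression, and 1 library allows no test between ages. Age also cannot be told apart from the other counting software and annotation used for P7.

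In the P7 cells that met the criteria, Foxd1 was at 188 CPM (exact 95% Poisson interval 162 to 217) against 69.9 (67.6 to 72.2) in the other P7 mesenchyme. Aldh1a2 was at 119 CPM (98.7 to 143) against 35.4 (33.8 to 37.1). Kcnk2, a potassium channel, was at 473 CPM (431 to 517) against 84.4 (81.9 to 87.0). Id2 was at 780 CPM (726 to 837) against 1451 (1440 to 1461). Sparcl1, so different at E15, was at 2452 CPM (2356 to 2551) against 2243 (2230 to 2256). Among 114 named genes called at E15 with over 3 UMIs in both P7 sets, 70 had the same direction at P7 and 44 the opposite. The intervals cover counting error within 1 library.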

How the data were processed

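The authors deposited raw UMI counts per gene and barcode, made with Cell Ranger on GRCm38 (mm10) per the submitters' processing notes; per the file headers the version was 6.1.2 for E15 and 3.1.0 for P7. The rule that called cells is not given in the sources used here. The members and gene lists were chosen with earlier results of these data known. Counts were summed per library and cell set, scaled with TMM, filtered with filterByExpr and tested in edgeR 4.0.16 (R 4.3.3), leaving the 8 genes of the criteria out of the test but in the totals. The test pairs cell sets of the same library through the block; DESeq2 1.42.0 was an alternative. SE is the log2 difference divided by the square root of F, so against the rest it rests on the spread pooled over all genes. Clusters used scikit-learn 1.9.0 and leidenalg 0.10.2 (2000 variable genes, 30 components, 15 neighbours, Leiden resolution 1). Scrublet was run in scanpy 1.11.5. Doublets were not removed; leaving out the highest Scrublet scores, 0.8% per 1000 barcodes, was an alternative, since the automatic threshold marked only 6 and 4 cells. Tested on simulated data for the comparison with the rest (13414 to 13430 genes), 46%, 96.5% and 100% of 200 changed genes were called at folds of 1.5, 2 and 4. The changed genes were drawn from those with at least 200 UMIs, and all genes were given 1 common spread. Recovery of scarcer genes, or of genes that differ more between libraries, was not simulated.

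The text names, by rule, the 12 called genes with the largest change in each direction with at least 50 CPM in the higher set of both libraries, leaving out mitochondrial, ribosomal, haemoglobin, sex-linked and unnamed genes, and per list at most 6 called and 3 uncalled genes. Not all of these are given.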

Additional observations from a re-analysis of the deposited data

Results flagged for a closer look

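Some named genes differed between Meox2+ Dcn+ cells and other mesenchyme in 1 direction in both E15 libraries and in the opposite direction at P7, each by at least 1.5-fold, with P7 intervals that do not overlap and a level of at least 50 CPM at both ages; this difference between ages was not tested. The log2 ratio of Rflnb was 1.24 and 1.25 in the E15 libraries and -1.33 at P7, where it was at 32.1 CPM against 80.8. For Gdf10 the ratios were -2.33 and -2.70 at E15 and 0.65 at P7.

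The haemoglobin genes did the same. Their P7 log2 ratios were 3.26 for Hba-a1, 3.46 for Hba-a2, 2.12 for Hbb-bt and 3.18 for Hbb-bs, while every E15 ratio was between -5.61 and -5.00. Hba-a1 and Hba-a2 are near-identical copies, so the split of reads between them is uncertain. The P7 values come from 77 cells of 1 library, of which 71.4% held exactly 1 UMI of Meox2. At E15 the shares of cells with Hbb-bs were close, at 15.0% and 11.46% against 14.3% and 9.63% in the rest after thinning.

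Another 13 named genes turned in the same way at a level under 50 CPM at E15 or P7. Among them Angpt1 had log2 ratios of -4.04 and -4.02 at E15 and 1.47 at P7, from 16 UMIs. Col14a1 had -1.26 and -1.38 at E15 and 1.31 at P7, Ucma 1.92 and 2.39 at E15 and -1.80 at P7, and Scx 0.86 and 0.94 at E15 and -1.60 at P7, from 6 UMIs. These differences between ages were not tested either.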

How the results depend on the processing

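Without the library as a block (no replicate block) 282 genes were higher and 594 lower than in the rest, 162 and 331 against Meox2+ Dcn-low cells, and 136 and 325 against Meox2- Dcn+ cells. At a fold of at least 2 the counts were 174 and 466, 100 and 241, and 75 and 245, in the same order, and with DESeq2 154 and 263, 107 and 214, and 80 and 234. Choosing cells after thinning to 5000 UMIs gave 139 and 264 against the rest; the cause was not tested. Leaving out replicate 1 or 2 leaves no test: genes past 1.5-fold in the other library alone numbered 660 to 730 higher and 1148 to 1248 lower against the rest, 555 to 635 and 927 to 965 against Meox2+ Dcn-low cells, and 689 to 717 and 840 to 961 against Meox2- Dcn+ cells (the last 2 sets of values were added after the data were seen). Other scalings, filters and cell matches moved no count by more than 1.5 times, and counts with comparison cells matched on UMIs were 290 and 565 against the rest.

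The share of mesenchyme was 23.6% ± 2.50 (SD, n = 2). It was 13.2% under stricter criteria (2 UMIs of Meox2 and 4 of Dcn) and 11.8% after thinning. Of 143 named genes called against the rest, 95 were called by DESeq2, 129 without the block and 83 after thinning, where only 117 had a value. All 143 kept their sign in each library alone, but they were called from these same libraries, so this is no separate check. Directions reversed after thinning for Pdgfrl (0.0108), Crabp2 (-0.0018), Hhip (0.0347), Fgf9 (0.23) and Hbb-bt (0.0196). Tubb3, which was not among the 143 called genes, reversed to -1.51 when the highest Scrublet scores were left out. All 143 kept their sign under that setting.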
